A study of Mus musculus with 10 samples.

Results

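Transcripts of 8 genes for ligand-activated or orphan transcription factors, grouped here under the proximal tubule, were followed in kidneys of Ehhadh knockout mice and of wild types. The RNA was of bulk kidney, so it does not place these transcripts in that segment. The product of Ehhadh is an enzyme of fatty acid β-oxidation in peroxisomes. The genes, chosen by symbol, were Hnf4a, Hnf4g, Nr1i2, Nr1h4, Rxra, Esrra, Esrrg and Ahr, 8 of the 24062 genes in the deposited count matrix, and each passed the filter on low counts. Polyadenylated RNA was read from 10 libraries of kidneys of adult males: 4 Ehhadh knockout (KO) animals of C57BL/6N, a wild-type (WT) animal of 129S2_SvPasCrl, a WT animal of DBA_2J, and 4 WT animals of C57BL/6N, which are called WT below. The labels give one genotype and one strain per animal. How the allele was made, and whether KO and WT animals were littermates, are not given in the sources used here. Nothing in the labels sets out how the replicates were housed or collected, so p-values measure the spread between these animals.

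Hepatocyte nuclear factor 4α (HNF4A, from Hnf4a) and its paralogue HNF4G bind DNA as dimers without needing an added ligand, and in mice HNF4A is required for proximal tubule cells to mature. The pregnane X receptor (PXR, from Nr1i2) senses drugs and steroids, the farnesoid X receptor (FXR, from Nr1h4) senses bile acids, and both act with the retinoid X receptor RXRA. The oestrogen-related receptors ESRRA and ESRRG are orphan receptors that drive genes of mitochondrial energy metabolism together with the coactivator PGC-1α. The aryl hydrocarbon receptor (AHR) belongs to another family, the basic helix-loop-helix factors. It pairs with ARNT and switches on enzymes of xenobiotic breakdown.

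The promoters of Nr1i2, the member that differed between KO and WT, and of Hnf4a, the most abundant, are shown to place the counted transcripts. RefSeq promoter windows of 300 bases (GRCm38.p6, from 250 bases before to 50 bases after a start) were found for 6 of the 8 genes, in 11 windows, and are printed 5′ to 3′ on the strand of the gene. All letters are in lower case because neither window holds a motif that was searched.
Nr1i2, chr16:38294775-38295074, minus strand: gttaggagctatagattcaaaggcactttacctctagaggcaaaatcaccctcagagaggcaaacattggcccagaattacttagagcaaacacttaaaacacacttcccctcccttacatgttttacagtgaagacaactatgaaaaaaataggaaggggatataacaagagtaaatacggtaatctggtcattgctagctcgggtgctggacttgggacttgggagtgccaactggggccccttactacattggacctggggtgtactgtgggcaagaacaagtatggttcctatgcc
Hnf4a, chr2:163546905-163547204, plus strand: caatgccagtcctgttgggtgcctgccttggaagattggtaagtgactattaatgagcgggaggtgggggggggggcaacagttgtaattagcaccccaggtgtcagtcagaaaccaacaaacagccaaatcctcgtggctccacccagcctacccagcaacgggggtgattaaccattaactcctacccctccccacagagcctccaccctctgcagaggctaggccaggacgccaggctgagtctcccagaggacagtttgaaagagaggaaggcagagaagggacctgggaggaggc
The motifs searched on both strands were the HNF4-specific site CAAAGTCCA, the nuclear receptor core AGGTCA, the extended ERR core TCAAGGTCA, which contains AGGTCA, and the AHR core GCGTG. Of all 32851 windows, 0.475%, 16.3%, 0.423% and 32.4% hold them, in that order. That the Nr1i2 and Hnf4a windows lack them says only that these letters are not in these 300 bases. RefSeq places another Hnf4a start at position 163506857 of chromosome 2, whereas the exons counted by the authors begin at 163547188, so exons used only from that more distant start were not counted.

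Libraries held 41.49 to 52.30 M counts (M, 1e6) in KO, 51.19 M in 129S2_SvPasCrl, 57.25 M in DBA_2J and 19.79 to 35.99 M in WT. KO libraries were thus deeper than WT libraries without overlap (exact permutation test of totals, two-sided, p = 0.0286, which is the smallest possible here). Ehhadh itself read 175 to 327 CPM (counts per M of the TMM-scaled library) in KO, 788 in 129S2_SvPasCrl, 796 in DBA_2J and 2088 to 3418 in WT. In the edgeR quasi-likelihood test of KO against WT, 1710 of 15547 tested genes passed at a Benjamini-Hochberg adjusted p under 0.05, which is 11.0% of them. That was 6.32% higher and 4.68% lower in KO (982 and 728 genes, or 832 and 938 with upper-quartile scaling), and 17.7% had KO and WT libraries without overlap. Of the 15547 tested genes, 4047 had an unadjusted p under 0.05 in edgeR, and DESeq2, another test, called 2344.

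Among the 8 genes, Nr1i2 rose in KO kidneys and none of the other 7 passed the test in either direction (0 at an unadjusted p under 0.05 in edgeR, and 0 called by DESeq2). This is 1 of 8 against the 11.0% of all tested genes, so the number of calls among them is near the background. Their median log2 fold change (KO over WT) was −0.02, against −0.01 over all tested genes, and the median of its size was 0.06, against 0.14. Nr1i2 was also the only one of the 8 whose KO and WT libraries did not overlap.

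**Figure D1:**
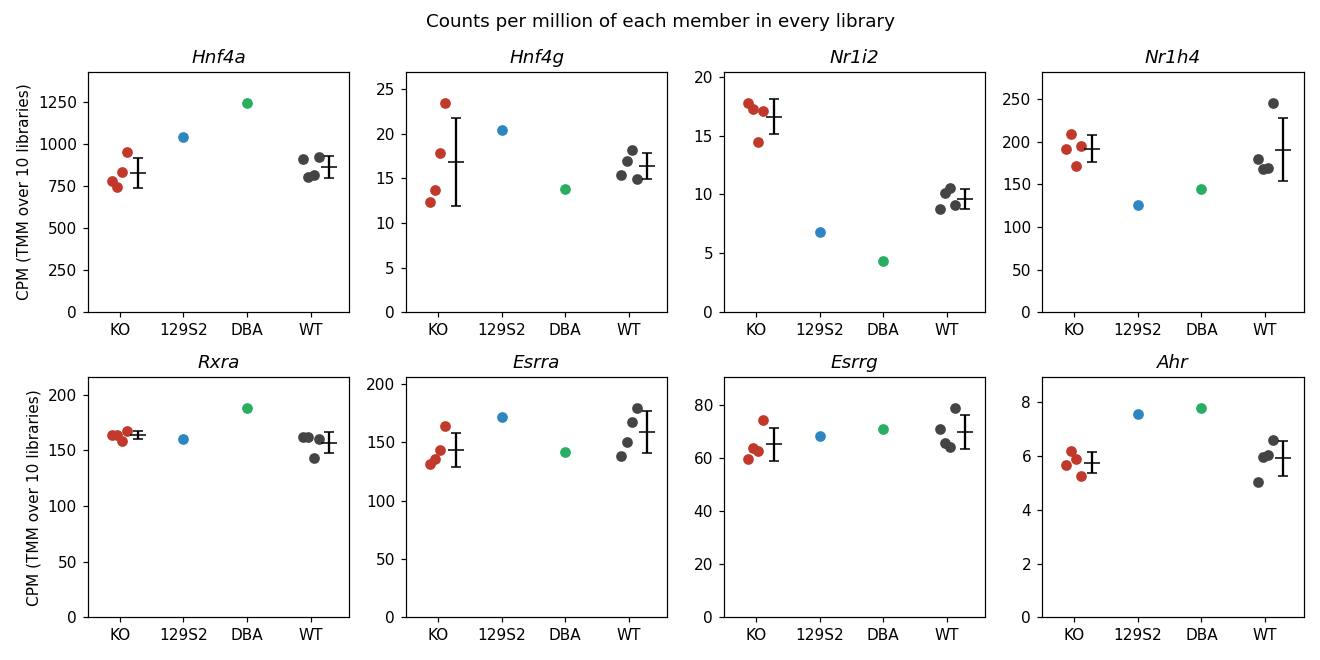
CPM of the 8 genes in every library (TMM scaling over 10 libraries), with 4 KO and 4 WT points and 1 point for each other strain; black marks are the mean and SD of the 4 libraries. The Nr1i2 points of KO, at 14.4 to 17.8 CPM, all lie above those of WT, at 8.73 to 10.5 CPM, and those of both other strains lie under WT.

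Nr1i2 (chromosome 16, 38248349 to 38294824, minus strand, mm10) read 18.0, 17.4, 14.5 and 17.2 CPM in the KO libraries, against 8.79, 10.2, 10.6 and 9.13 CPM in the WT libraries. The lowest KO library was above the highest WT library. The means were 16.8 ± 1.55 CPM in KO against 9.68 ± 0.861 CPM in WT (SD, n = 4 per genotype), a 1.73-fold higher level in KO with a 95% interval from 1.49- to 2.01-fold (log2 fold change 0.79, SE 0.10; edgeR adjusted p = 0.000741). The call rests on 171 to 903 counts per library and held whichever of the 8 libraries was left out (log2 fold change 0.75 to 0.85; edgeR adjusted p = 0.000757 to 0.00377). With every library thinned to 19.79 M counts the log2 fold change was 0.85 (edgeR adjusted p = 0.000715), so the rise was as large at equal depth.

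Sample titles came with and without a leading E, each form on 2 KO and 2 WT animals, and the labels leave its meaning unstated. The leading number of a title was never shared by a KO and a WT animal, so whatever it marks cannot be told apart from genotype. In the edgeR fit of animals with an E alone, Nr1i2 had a log2 fold change of 0.68 and an adjusted p of 0.112. Among those without an E it was 0.89, with an edgeR adjusted p of 0.00106. The difference between the forms did not pass a test (interaction 0.21 on the log2 scale; edgeR adjusted p = 0.883). Nr1i2 lies 16.5 megabases from Ehhadh on the same chromosome. Of 256 tested genes on chromosome 16 no farther from Ehhadh than Nr1i2 is, 32 were called, which is 12.5%. The part of the shared chromosome in the Nr1i2 difference was not tested.

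Hnf4a (chromosome 2, 163547188 to 163572907) was the most abundant of the 8 in CPM and per length. It read 792, 757, 838 and 958 CPM in KO, against 916, 812, 819 and 931 CPM in WT. KO replicate 4 was the highest and KO replicate 2 the lowest of the 8 libraries, so the KO values enclosed those of WT. The means were 836 ± 87.3 CPM in KO against 870 ± 62.7 CPM in WT (SD, n = 4 per genotype), with a fold of 0.962 and a 95% interval from 0.848 to 1.09 (edgeR adjusted p = 0.722). The p does not show equal levels, and the interval bounds the difference.

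Of 20 markers of the proximal tubule, 8 fell in KO, none rose and 12 did not pass, against 4.68% of all tested genes lower. Their summed level was 40921 to 46931 CPM in KO and 52559 to 54013 CPM in WT, without overlap (TMM over 10 libraries). Kap, an androgen-regulated gene of the proximal tubule, held a large part of that sum (18966 ± 2935 CPM in KO, 25293 ± 911 CPM in WT; SD, n = 4 per genotype). Without Kap the sum was 22015 to 26318 CPM in KO and 27699 to 29155 CPM in WT, still without overlap. No marker was at 0. The falls included Slc7a13, a late proximal tubule transporter (275 ± 26.6 CPM in KO, 556 ± 122 CPM in WT), the organic anion transporter gene Slc22a8 (log2 fold change −0.44, SE 0.07), Slc22a30 (−0.68, SE 0.11) and the acyl-CoA synthetase gene Slc27a2 (−0.32, SE 0.06). These 4 kept their calls whichever library was left out. The calls of Slc34a3, Slc13a3, Kap and Lrp2 held in 2, 3, 3 and 1 of 8 such edgeR fits, in that order (adjusted p up to 0.0809, 0.0765, 0.0740 and 0.107). That of Kap was also lost with limma on the deposited log2 table (adjusted p = 0.102), and that of Lrp2 with all 10 libraries (0.0504). Slc5a12, a lactate transporter gene, ran the other way, at 309 ± 62.2 CPM in KO against 229.8 ± 33.5 CPM in WT, without overlap and without passing (edgeR adjusted p = 0.0715). Slc34a1, the main phosphate transporter of the proximal tubule, read 5605 ± 618 CPM in KO against 5607 ± 307 CPM in WT (SD over 4 animals). In bulk RNA, fewer cells of a type and less RNA per cell cannot be told apart, and the part of cell makeup in the values of the 8 genes was not tested.

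Hnf4g read 12.5, 13.9, 18.0 and 23.6 CPM in KO, against 15.5, 17.1, 18.3 and 15.01 CPM in WT. The KO libraries spread wider than the WT libraries, with the 2 KO animals without an E in their titles lowest and the 2 with an E at 18.0 and 23.6 CPM. The means were 17.0 ± 4.96 CPM in KO against 16.5 ± 1.52 CPM in WT (SD, n = 4 per genotype). The 95% interval of the fold, from 0.792 to 1.34, was the widest of the 8 (edgeR adjusted p = 0.908). By title form, the KO minus WT difference was 0.31 on the log2 scale with an E and −0.30 without (interaction unadjusted p = 0.0188 and adjusted p = 0.709 in edgeR).

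The bile acid receptor gene Nr1h4 read 193, 212, 172 and 197 CPM in KO, against 181, 169, 171 and 247 CPM in WT. WT replicate 4 was the highest of all, and the other WT libraries lay within or just under the KO range. The fold was 1.01, with a 95% interval from 0.845 to 1.20 (edgeR adjusted p = 0.964).

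Rxra, whose protein is the common partner of PXR and FXR, had the smallest standard error of the 8 fold changes (0.06 on the log2 scale). It read 166, 166, 159.7 and 169 CPM in KO, against 163, 164, 144 and 161 CPM in WT. The groups overlapped, with WT replicate 3 below all other libraries. The fold was 1.05, with a 95% interval from 0.959 to 1.14 (edgeR adjusted p = 0.523).

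Of the energy-metabolism receptors, Esrra read 133, 137, 144 and 165 CPM in KO, against 139, 152, 168 and 179.8 CPM in WT, and the groups overlapped. The fold of Esrra was 0.906, with a 95% interval from 0.790 to 1.04 (edgeR adjusted p = 0.361). Its exons share 50 bases with Trmt112, and a read over both genes was counted for each. Esrrg read 60.6, 64.9, 63.1 and 74.96 CPM in KO, against 71.5, 66.4, 64.7 and 79.3 CPM in WT. Its groups overlapped too, with a fold of 0.935 and a 95% interval from 0.824 to 1.06 (edgeR adjusted p = 0.515).

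Ahr was the least abundant, at 5.74, 6.27, 5.92 and 5.30 CPM in KO, against 5.09, 6.02, 6.07 and 6.65 CPM in WT. The KO libraries lay inside the WT range. The fold was 0.971, with a 95% interval from 0.810 to 1.17 (edgeR adjusted p = 0.868), on 99 to 288 counts per library.

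Per exon length, in CPM per kilobase of exon (RPKM), the order in WT was Hnf4a at 199.5 ± 14.4, Nr1h4 at 82.0 ± 15.7, Esrra at 71.3 ± 7.98, Rxra at 28.9 ± 1.73, Esrrg at 12.6 ± 1.18, Hnf4g at 3.94 ± 0.362, Nr1i2 at 3.83 ± 0.341 and Ahr at 1.08 ± 0.117 (SD, n = 4). In WT the ranges of Nr1h4 and Esrra overlapped, as did those of Hnf4g and Nr1i2, and no other neighbours did. In KO, Nr1i2 stood above Hnf4g, at 5.74 to 7.11 RPKM against 3.0004 to 5.64 RPKM, and Nr1h4 and Esrra again overlapped. Hnf4a exceeded 97.2% of the tested genes in WT by this measure, and Ahr exceeded 20.4%.

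**Figure D2:**
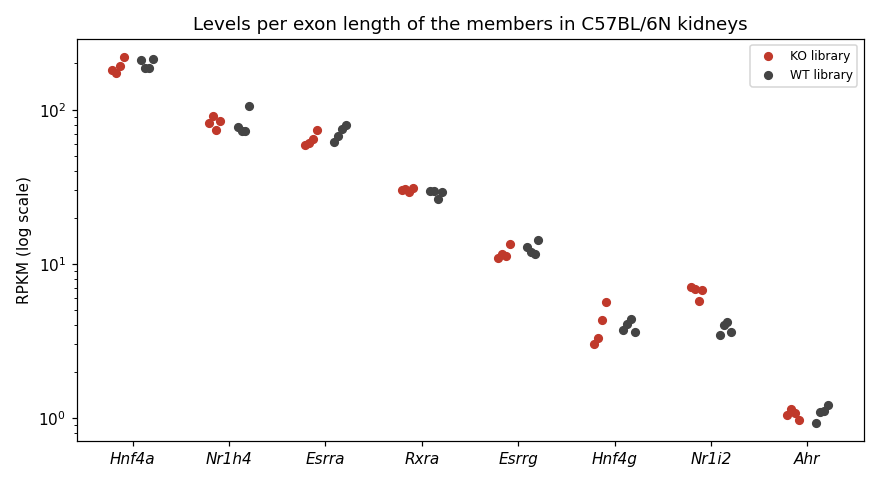
RPKM on a log axis for the 8 genes, ordered by their WT mean, with KO points left and WT points right of each name. Levels run from Hnf4a at 199.5 ± 14.4 RPKM down to Ahr at 1.08 ± 0.117 RPKM in WT, and the KO and WT points part only for Nr1i2.

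Ratios between paralogues, taken within each library so that no scaling enters, gave no difference past the test. Per length, Hnf4g RNA was 2.09% ± 0.397 of Hnf4a RNA in KO and 1.996% ± 0.318 in WT (SD, n = 4 each). The log2 ratio differed by 0.06 (KO minus WT; exact two-sided permutation p = 0.686). Esrrg was 18.3% ± 0.571 of Esrra in KO and 17.8% ± 2.13 in WT, a log2 difference of 0.04 (exact two-sided permutation p = 0.629). The DBA_2J library read 1.16% for Hnf4g over Hnf4a, below every C57BL/6N library, and 20.2% for Esrrg over Esrra. The 129S2_SvPasCrl library read 2.05% and 16.04% for these ratios.

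The kidneys of the other strains, labelled wild type for Ehhadh, were set beside WT. Each is 1 library of 1 animal, so the differences have no replicate check. Strain cannot be told apart from the state of that animal or its collection. Nr1i2 read 6.80 CPM in 129S2_SvPasCrl and 4.37 CPM in DBA_2J, against 9.61 ± 0.851 CPM in WT (SD, n = 4; TMM over 10 libraries). Both strain libraries lay under the lowest WT library, at 8.73 CPM, while every KO library lay above WT. The log2 differences from the WT mean were −0.49 and −1.13. That of DBA_2J was the only one among the 8 genes in either strain past 1.5-fold, a size that 29.2% of tested genes passed in DBA_2J and 21.6% in 129S2_SvPasCrl.

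Nr1h4 was also lower in both strains, at 126 CPM in 129S2_SvPasCrl and 145 CPM in DBA_2J, against a lowest WT library of 168 CPM. Hnf4a was higher, at 1043 and 1243 CPM, against a highest WT library of 926 CPM. Ahr was higher too, at 7.56 and 7.78 CPM, against a highest WT library of 6.61 CPM. Hnf4g went above the WT range in 129S2_SvPasCrl (20.5 CPM) and below it in DBA_2J (13.9 CPM), and Rxra was above it in DBA_2J (188 CPM). Esrra and Esrrg stayed inside the WT range in both. In all, 5 of 8 genes in 129S2_SvPasCrl and 6 of 8 in DBA_2J were outside the WT range, against 64.7% and 72.5% of all tested genes, so the 8 genes were near the background in this too.

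**Figure D3:**
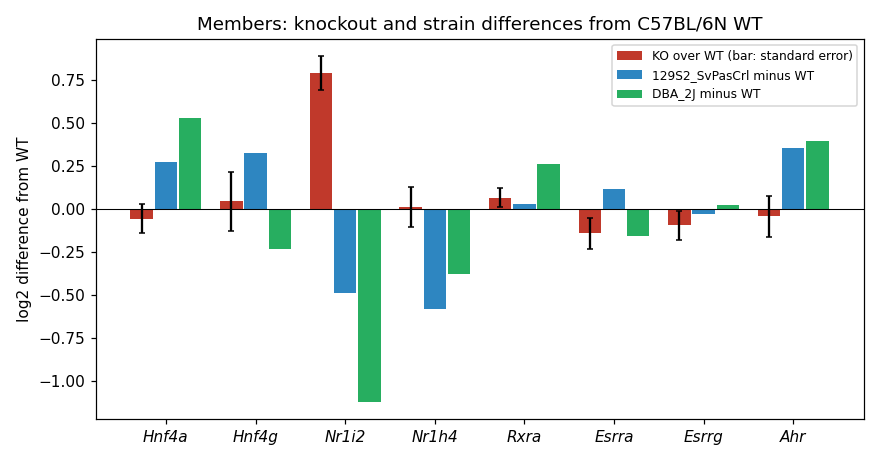
Log2 differences from C57BL/6N WT for the 8 genes: KO over WT with its standard error (4 against 4), then the single 129S2_SvPasCrl and DBA_2J libraries minus the WT mean. For Nr1i2 the KO bar stands at 0.79, and the strain bars at −0.49 and −1.13.

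The wider family was examined next. Of 49 nuclear receptor genes of the mouse, all were in the matrix, 42 passed the low-count filter, 2 rose and 2 fell; the median log2 fold change was −0.03. That is 4 of 42, against 11.0% of all tested genes. Beside Nr1i2, Rora, which encodes the orphan receptor RORα, rose to 78.2 ± 6.51 CPM in KO, against 64.6 ± 3.76 CPM in WT. Vdr, the vitamin D receptor gene, fell to 386 ± 46.9 CPM in KO, against 513 ± 73.1 CPM in WT (SD, n = 4 per genotype; log2 fold change −0.41, SE 0.11; edgeR adjusted p = 0.0377), with overlapping libraries. Rarg, a retinoic acid receptor gene, fell to 12.9 ± 2.37 CPM in KO, against 17.3 ± 0.922 CPM in WT.

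Those 3 calls, unlike that of Nr1i2, depended on single libraries in edgeR. The Rora call ended when KO replicate 1, KO replicate 2 or a WT library other than replicate 4 was left out (adjusted p = 0.0607 to 0.0826). That of Vdr ended with any library left out other than KO replicate 2 and WT replicate 4 (0.0749 to 0.103). That of Rarg ended with any left out other than KO replicate 3 (0.0709 to 0.111), and also with thinned libraries or no low-count filter (up to 0.0625).

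**Figure D4:**
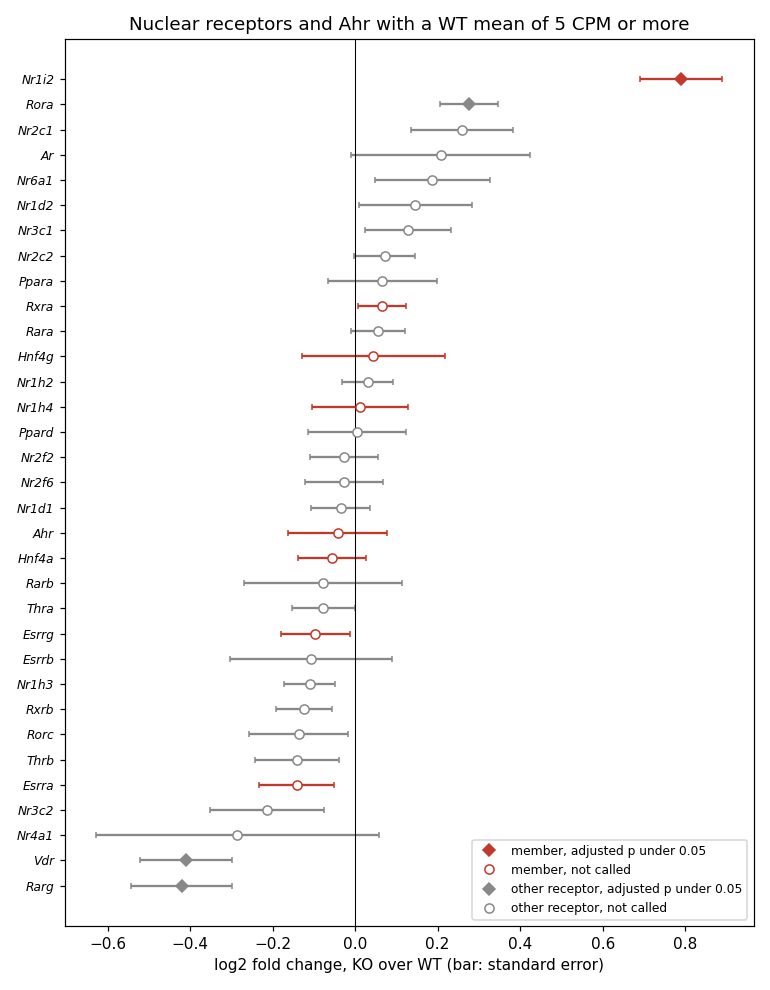
Log2 fold changes (KO over WT) with standard errors for the 33 genes, nuclear receptors and Ahr, that had a WT mean of 5 CPM or more, with the 8 genes of interest in red and filled diamonds at an edgeR adjusted p under 0.05. Nr1i2 stands at 0.79, with Rora next among the called at 0.28 and Rarg lowest at −0.42.

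Coregulator genes, which carry the receptors' signal to chromatin, did not pass in any of 17 members in edgeR. Of these 17, 2 had an unadjusted p under 0.05 in edgeR, against 4047 of all 15547 tested genes. DESeq2 called 1, against 2344 of all genes. The lowest p-values were those of the acetyltransferase genes Crebbp (log2 fold change 0.24, SE 0.07; edgeR adjusted p = 0.0552) and Ep300 (0.19, SE 0.07; 0.0932). Other transcription factor genes of the nephron fell in 4 of 22 members and rose in none, with a median of −0.21. Of all tested genes, 4.68% were lower and 6.32% higher in KO. The homeobox gene Emx1 read 42.0, 41.0, 42.5 and 41.8 CPM in KO, against 56.5, 58.4, 56.2 and 64.2 CPM in WT. These groups stood well apart (log2 fold change −0.49, SE 0.06; edgeR adjusted p = 0.000455). The others were Cebpa (−0.40, SE 0.08), Gata2, a factor of the collecting duct (−0.42, SE 0.09), and Grhl2, a factor of epithelial junctions (−0.43, SE 0.11). The Grhl2 call ended when any library other than WT replicate 3 was left out (edgeR adjusted p = 0.0649 to 0.0969).

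Known target genes of each receptor were then set beside its own level. The lists come from liver, intestine or kidney knowledge, and a member can have other regulators. Their counts stand against 6.32% of all tested genes higher and 4.68% lower in KO, and in lists this short they rest on few calls. Of 11 tested PXR targets, 2 rose and none fell (median log2 fold change 0.02). Gsta1, a glutathione S-transferase gene, read 41.4, 44.4, 33.9 and 39.5 CPM in KO, against 21.8, 22.2, 26.1 and 18.4 CPM in WT. All KO libraries lay above all WT libraries (log2 fold change 0.84, SE 0.11; edgeR adjusted p = 0.000907), although reads of Gsta1 and its close paralogues can be hard to separate. Abcb1b, a P-glycoprotein drug efflux pump gene, read 21.2, 24.2, 20.6 and 26.1 CPM in KO, against 11.7, 15.3, 14.4 and 11.1 CPM in WT, again without overlap (0.80, SE 0.12; edgeR adjusted p = 0.00174).

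The classical liver targets of PXR were near the floor of these kidneys. Cyp3a11 averaged 0.259 CPM in KO and 0.258 CPM in WT, and Cyp2b10 averaged 1.38 CPM in KO and 1.80 CPM in WT. The paralogous pump gene Abcb1a read 12.3 CPM in KO and 10.01 CPM in WT on average, without overlap between the groups, and did not pass (log2 fold change 0.30, SE 0.13; edgeR adjusted p = 0.182). Slco1a4, another listed PXR target, ran the other way, at 3.04 ± 1.07 CPM in KO against 5.53 ± 2.26 CPM in WT (SD, n = 4 per genotype). Its groups overlapped and it did not pass (log2 fold change −0.86, SE 0.31, edgeR adjusted p = 0.104). Ugt1a1 shares exons with other Ugt1a entries, so its count is uncertain. In the strain libraries Gsta1 read 20.8 CPM in 129S2_SvPasCrl and 1.44 CPM in DBA_2J, and Abcb1b 47.6 and 5.99 CPM.

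HNF4 targets went both ways, with 4 of 19 lower, 1 higher and a median of 0.00. Apom, which encodes the lipid carrier apolipoprotein M, read 33.1, 35.3, 34.3 and 35.3 CPM in KO, against 59.0, 78.8, 68.4 and 47.9 CPM in WT. The KO libraries were even and all below WT (log2 fold change −0.88, SE 0.12; edgeR adjusted p = 0.00130). Slc22a8 fell to 667 ± 45.7 CPM in KO, against 904 ± 46.4 CPM in WT, and Proc, the protein C gene, to 215 ± 11.1 CPM in KO, against 276 ± 7.37 CPM in WT (SD, n = 4 per genotype). Cdhr5, a brush border cadherin gene, rose to 305 ± 22.4 CPM in KO, against 248 ± 12.5 CPM in WT, a call lost without KO replicate 1 (edgeR adjusted p = 0.0527). Slc34a3, a phosphate transporter gene, was the other fall (−0.36, SE 0.09), and it lost its call without any 1 library but KO replicate 4 or WT replicate 2 (edgeR adjusted p = 0.0647 to 0.0809). It also lost it with thinned libraries (0.0547). Of these 20 listed targets, 5 are also in the list of proximal tubule markers, Slc22a8 and Slc34a3 among them.

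FXR targets fell in 3 of 8 tested members and rose in none (median −0.16). The fallen genes were Aqp2, the water channel of principal cells (122 ± 8.06 CPM in KO, 260.3 ± 129 CPM in WT), Kng1, the kininogen gene (7.42 ± 0.479 CPM in KO, 11.4 ± 2.41 CPM in WT), and Fetub, the fetuin B gene (1.33 ± 0.544 CPM in KO, 3.13 ± 0.904 CPM in WT; SD, n = 4 each). Kng1 and Fetub lie 1.27 and 1.13 megabases from Ehhadh, and Aqp2 is also a principal cell marker, a list in which 7 of 8 genes fell. The part of these circumstances in the falls was not tested. Kng1 lost its call without WT replicate 3 (edgeR adjusted p = 0.0580), Aqp2 without WT replicate 1, KO replicate 1 or KO replicate 2 (0.0535 to 0.0639), and Fetub without WT replicate 3, WT replicate 4 or any KO library other than replicate 4 (0.0505 to 0.0866). Nr0b2, the direct FXR target that encodes the repressor SHP, averaged 1.62 CPM in KO and 1.84 CPM in WT and did not pass. The bile acid transporter genes Slc51a, Slc51b and Slc10a2 averaged 67.3, 22.4 and 9.02 CPM in KO, against 51.2, 21.9 and 10.1 CPM in WT. None of these passed (edgeR adjusted p = 0.210, 0.864 and 0.677, in that order).

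No target of the oestrogen-related receptors passed in edgeR among 23 tested genes, coactivators included, with a median of −0.04. Of these 23, 4 had an unadjusted p under 0.05 in edgeR, against 4047 of all 15547 tested genes. DESeq2 called 3, against 2344 of all genes. The nearest were Acadm, the medium-chain acyl-CoA dehydrogenase gene (868 ± 92.7 CPM in KO, 1082 ± 115 CPM in WT; edgeR adjusted p = 0.0525), and Atp5o, an ATP synthase subunit gene (280 ± 21.9 CPM in KO, 322 ± 10.3 CPM in WT; edgeR adjusted p = 0.0722; SD, n = 4 each). Ppargc1a, which encodes PGC-1α, read 73.8 ± 10.7 CPM in KO and 74.6 ± 4.43 CPM in WT. Among 14 tested partners and targets of AHR none passed in edgeR, with a median of 0.04. Of the 14, 2 had an unadjusted p under 0.05 in edgeR and DESeq2 called 0. The entries Ugt1a6a and Ugt1a6b share exons with each other and with Ugt1a1, so they are not separate counts. They read 593 and 592 CPM in KO, against 639 and 638 CPM in WT. Tiparp, a feedback inhibitor of AHR, read a log2 fold change of 0.21 (SE 0.08; edgeR adjusted p = 0.131) and the partner gene Arnt2 0.28 (SE 0.11; 0.134). Cyp1a1, the classical AHR target, averaged 0.516 CPM in KO and 0.594 CPM in WT.

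**Figure D5:**
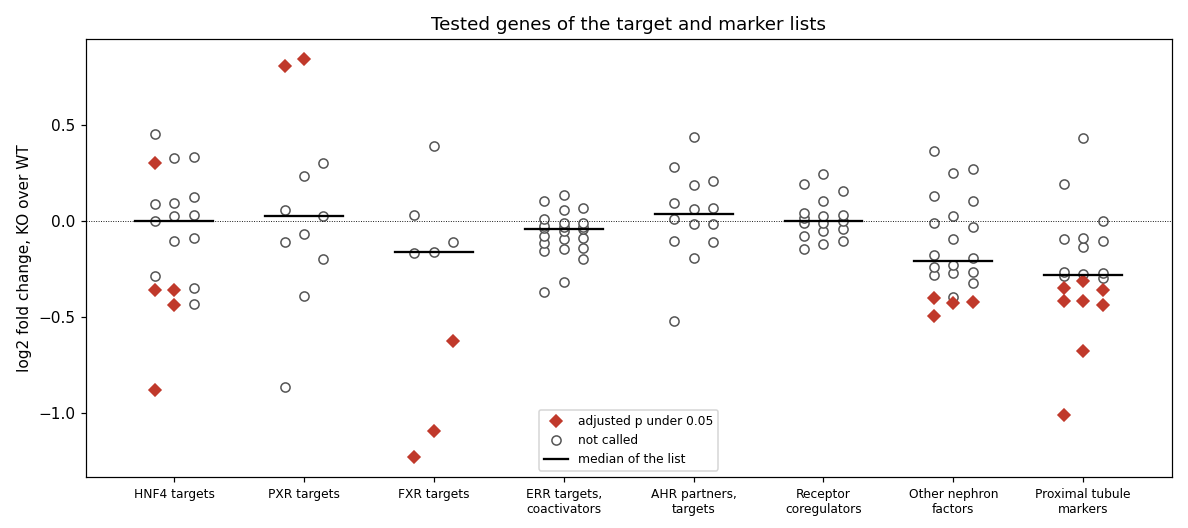
Log2 fold changes (KO over WT) of the tested genes in 8 lists, with filled diamonds at an edgeR adjusted p under 0.05, open circles for the rest and a bar at each median. The called PXR targets lie at 0.80 and 0.84, the called FXR targets all lie below 0, and no gene of the ERR, AHR and coregulator lists is filled.

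Markers of other cells were read beside these results, against 6.32% of all tested genes higher and 4.68% lower in KO. Of all 15547 tested genes, 4047 had an unadjusted p under 0.05 in edgeR, and DESeq2 called 2344. Principal cell markers fell in 7 of 8 genes (471 to 504 CPM summed in KO, 689.8 to 995 CPM in WT) and intercalated cell markers in 6 of 9 (341 to 378 CPM in KO, 481 to 545 CPM in WT). Injured tubule markers rose in 7 of 11 genes (1267 to 2097 CPM in KO, 1006 to 1365 CPM in WT). Of 6 thick ascending limb markers 2 fell (2 at an unadjusted p under 0.05 in edgeR, and 2 called by DESeq2). Of 6 distal convoluted tubule markers 2 fell as well, but all 6 had an unadjusted p under 0.05 and 5 were called by DESeq2, with a median log2 fold change of −0.47. Of the endothelial markers 2 of 7 fell. Fibroblast markers (8 tested) gave 1 rise and 1 fall, macrophage markers (10) 1 fall, and liver markers (7) 1 rise and 1 fall, while podocyte (6), lymphocyte (7) and adrenal (1) markers gave no call in edgeR or DESeq2 (0, 1 and 0 at an unadjusted p under 0.05 in edgeR). The part of these shifts in the level of Nr1i2 was not tested.

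The genes whose pattern over the 8 C57BL/6N libraries was most like that of Nr1i2 were Eps8l3, Asrgl1 and Comtd1, out of 11311 tested genes with a mean of 5 CPM or more. The root mean square differences of centred log2 CPM were 0.08, 0.08 and 0.09, against an SD of 0.44 for Nr1i2 itself. Libraries of both genotypes entered this measure, so it favours genes with a KO and WT step like that of Nr1i2. The KO and WT means given next therefore follow from how the genes were picked. Likeness to Nr1i2 within a genotype was not tested. Eps8l3 read 33.7 ± 4.24 CPM in KO and 20.04 ± 1.60 CPM in WT, Asrgl1 12.3 ± 0.806 CPM in KO and 6.75 ± 0.489 CPM in WT, and Comtd1 23.2 ± 1.94 CPM in KO against 14.4 ± 0.995 CPM in WT (SD, n = 4 per genotype). Exons of Eps8l3 share 964 bases with 4933431E20Rik, so its count is uncertain.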

How the data were processed

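RNA of 10 mouse kidneys was read as polyadenylated, single-end 100-base reads, per the labels' protocols. The submitters' processing notes list STAR, featureCounts, edgeR and the build mm10 (GRCm38). Exons of the UCSC mm10 genes were counted with featureCounts 1.5.2 from primary alignments, which, per the file headers, gave a read over several genes to each, and set no strand option. The authors deposited raw counts per library, the joined matrix, and normalized log2 values, used here as an alternative; exon lengths (another unit, bases) came from the same files. Groups followed the genotype and strain labels, and replicates are numbered by accession, which pairs no animals. The lowest of 12 replicate pairs had a chi-square of 10.9 per degree of freedom, so no library was counted 2 times.

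For 4 KO and 4 WT libraries, counts went through edgeR 4.0.16 (under R 4.3.3; filterByExpr, TMM, quasi-likelihood F test on genotype, 15547 genes, adjusted p under 0.05). SE is the size of the log2 fold change over the square root of F, and 95% intervals use the t distribution of that test. Intervals cover these animals only. Ratios used counts plus 0.5. Alternatives used DESeq2 1.42.0, limma 3.58.1, other scalings, filters, terms, thinning and left-out libraries.

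The 8 genes and the 21 lists (271 symbols, all matched, 1 by an older symbol) were chosen with earlier results of these data known. The sum of markers without Kap was added after the data were seen. Named genes are the 8, Ehhadh, up to 4 called genes per list by smallest p (or 2 uncalled), and 3 genes most like each called gene. Slc34a1, Slc5a12, Slc13a3, Kap, Lrp2, Slc34a3 among HNF4 targets, Abcb1a, Slco1a4, Ugt1a1, Ugt1a6a and Ugt1a6b were named after their values were seen. So were Cyp3a11, Cyp2b10, Nr0b2, Slc51a, Slc51b, Slc10a2, Ppargc1a and Cyp1a1. The same holds for Havcr1, Sox9 and Spp1 among injured tubule markers and for the genes of the closing section. Members of the other marker lists, apart from these injured tubule markers, are given as counts.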

Additional observations from a re-analysis of the deposited data

Results flagged for a closer look

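Rxra in WT stood out because 1 library lay far from the other 3: WT replicate 3 read 144 CPM and the others 161 to 164 CPM, and that gap took 0.88 of the range of the group on the log2 scale. Chance flags about 1 in 20 groups, and 20 groups were looked at. Without WT replicate 3 the log2 fold change of Rxra was 0.03 and did not pass.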

How the results depend on the processing

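Nr1i2 kept its call in 9 of 9 alternatives with all animals (log2 fold change 0.76 to 0.85; RLE and upper-quartile scaling, DESeq2, limma on the deposited log2 table, both other filters, all 10 libraries with strain as a term, title form as a term, and thinning) and in 8 of 8 with 1 library left out. None of the other 7 genes passed in any of these. With titles with a leading E alone, 143 genes were called, 92 higher and 51 lower, and 0 of the 8 genes. The fit of titles without an E, of equal size (2 against 2), called 1723, 924 higher and 799 lower, and 1 of the 8. Leaving out 1 library gave 1005 to 1638 called genes, 610 to 916 higher and 381 to 722 lower, against 1710, 982 and 728 (calls in all or in one direction moved by over 1.5 times when WT replicate 1, WT replicate 3, KO replicate 1 or KO replicate 2 was absent), and always 1 of the 8. By title form the ratio differences were 0.27 and 0.11 with an E and −0.15 and −0.03 without, with 2 against 2 animals, too few for an exact permutation test to pass. DESeq2 called 2344 genes. Upper-quartile scaling turned the split to 832 higher and 938 lower, with a median of all genes of −0.03. The Hnf4g over Hnf4a difference ran from −0.04 to 0.17 and that of Esrrg over Esrra from −0.02 to 0.11 with 1 library left out. Among titles without an E, the last numbers recur in both genotypes. A fit of these animals with that number as a replicate block, added after the data were seen, called 1935 genes, 1030 higher and 905 lower, and 1 of the 8 (Nr1i2, log2 fold change 0.89). Deviations of same-numbered animals had a correlation of −0.03 over genes. With 2 pairs this cannot tell whether the numbers pair animals, and the main fit does not use them. Depth limits Ahr and Nr1i2 most, at 99 and 171 counts in the shallowest library.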

Other observations

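Of genes of bile acid transport, Slc10a2, the apical bile acid transporter gene, read 56.7 CPM in 129S2_SvPasCrl and 35.6 CPM in DBA_2J, against 5.93 to 12.4 CPM in KO and 8.68 to 12.4 CPM in WT (TMM over 10 libraries). Slc51a, which encodes a subunit of the basolateral transporter OSTα-OSTβ, read 177 and 146 CPM in these strains, against 60.2 to 80.9 CPM in KO and 36.1 to 71.5 CPM in WT. Slc51b, the gene of the other subunit, differed less, at 25.2 and 25.1 CPM, against 19.1 to 24.1 CPM in WT. The FXR target Nr0b2 read 1.98 and 2.34 CPM, against 1.10 to 2.21 CPM in WT. Both strains also had less Nr1h4 RNA than WT, and a link between these levels was not tested. Each strain is 1 library, so no test was made.

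Among other listed genes, Pdk4, a brake on pyruvate oxidation, read 15.5 CPM in 129S2_SvPasCrl and 14.4 CPM in DBA_2J, against 209.9 to 612 CPM in KO and 226 to 495 CPM in WT. Nqo1, a quinone reductase gene, read 39.6 and 45.3 CPM in these strains, against 102 to 144 CPM in KO and 106 to 129 CPM in WT. These genes were picked after their values were seen.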
